A study of Mus musculus with 3 samples.

Results

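Tlr2, Tlr4, Tlr7, Tlr13, Cd14, Ly96 and Myd88, which sense microbial and damage-related molecules or pass that signal on, were followed in mouse liver after irreversible electroporation (IRE), a wound model in which electric pulses kill the cells of a confined area. These 7 genes of the 19091 genes counted were chosen by symbol, for their known roles, and with earlier results of these data at hand. Liver of adult C57BL/6 mice was digested and profiled by Drop-seq, which catches cells in droplets with barcoded beads and counts each captured transcript once by its unique molecular identifier (UMI). There were 3 libraries: control liver, liver 1 day after IRE (1 d p.i., post injury) and liver 7 days after IRE (7 d p.i.). The control is labelled as sham surgery with tissue taken after 1 day, whereas the methods take it from the equivalent area of uninjured livers without mention of a sham operation. For the pulses the labels give a higher pulse voltage than the methods. Each library was pooled from 3 livers, so that there was 1 library per condition, no test between conditions was possible, and differences between mice, preparations and sequencing runs cannot be told apart from those of the injury. All intervals are 95% intervals and cover counting error only.

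Toll-like receptors are pattern recognition receptors. TLR2 and TLR4 sit at the cell surface, where TLR2 binds bacterial lipoproteins as a heterodimer and TLR4 binds lipopolysaccharide (LPS). CD14 hands LPS to the complex of TLR4 with the protein encoded by Ly96, while TLR7 and TLR13 read RNA inside endosomes, TLR13 being present in mice and absent from humans. MyD88 is the adaptor that joins all 4 of these receptors to the IRAK kinases and NF-kB. In the liver these genes are best known from Kupffer cells, the resident macrophages, and from the monocytes and neutrophils that enter injured tissue.

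Promoter sequence from RefSeq (mouse build GRCm38.p6, from 250 bases before to 50 after the start of the gene) was at hand for Tlr2, Tlr13 and Myd88, 3 of the 7 genes, all of which had a higher level at 7 d p.i. than in control. Each promoter was searched on both strands for an NF-kB motif, for the core of the interferon-stimulated response element (GAAANNGAAA) and for the core bound by PU.1, a factor of myeloid cells (GAGGAA). The windows of 30 bases around the matches are shown 5′ to 3′ on the strand of the gene, with the match in capitals.
Tlr2 distal, NF-kB: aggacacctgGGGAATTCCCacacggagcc
Tlr2 proximal, NF-kB: ccctgacctgGGGACATCCCcttccctcac
Tlr13, PU.1 core: aaaaaaagagaaGAGGAAggaaatgtctca
Myd88, interferon response core: gagcttctcgGAAAGCGAAAgaaggagggg
The distal Tlr2 match (chr3:83841761-83841790, minus strand) covered the bases from -172 to -163 relative to the start of the gene, read the same on both strands, and overlapped a further match that began 1 base upstream. The proximal one (chr3:83841597-83841626, minus strand) began at -8. The Tlr13 match (chrX:106143180-106143209, plus strand) lay from -83 to -78 and the Myd88 match (chr9:119340039-119340068, minus strand) from -40 to -31. Of 32851 promoters of the same length, 4.51% held an NF-kB match, 3.44% the interferon response core and 28.3% the PU.1 core. The matches describe letters in these windows and were not tested for binding.

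A barcode counted as a cell from 200 genes on. The control library had 10386 such cells, the library of 1 d p.i. 9253 and that of 7 d p.i. 5624, with 8013800, 6107866 and 3058967 UMIs and median depths of 595, 509 and 456.5 UMIs. Mitochondrial transcripts took 20.5%, 21.7% and 4.10% of these UMIs, and 10 hepatocyte marker genes took 0.139%, 2.73% and 0.0263%. The libraries shared 68 (control and 1 d p.i.), 44 (control and 7 d p.i.) and 149 (1 d and 7 d p.i.) cell barcodes. Transcripts are counted at their 3′ ends, so that levels, given as UMIs per 1000000 UMIs (CPM), were not scaled by gene length and were compared between libraries or cell classes but not between genes.

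At 7 d p.i. Cd14 was 27.3-fold higher than in control, Tlr2, Tlr4 and Tlr13 were 3.39-fold to 3.94-fold higher, Ly96 and Myd88 were 2.05-fold and 1.85-fold higher, and the interval of Tlr7 included no change. At 1 d p.i. 5 of the 7 genes were below control, Ly96 was above it and Cd14 was at the same level within counting error. Tlr2, for the lipoprotein receptor, was at 28.0 CPM in control, 17.4 at 1 d p.i. and 106.9 at 7 d p.i. (224, 106 and 327 UMIs). The 3 intervals did not overlap, with the library at 7 d p.i. highest. The ratio to control was 0.621 (0.488 to 0.786) at 1 d p.i. and 3.82 (3.22 to 4.55) at 7 d p.i. More cells of a type and more RNA per cell cannot be told apart in these sums over all cells.

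Tlr4, for the LPS receptor, stood at 22.3, 17.2 and 87.9 CPM in the same order of libraries (179, 105 and 269 UMIs). The intervals of control and 1 d p.i. overlapped, and the ratio between them was 0.770 (0.599 to 0.985), whereas the ratio of 7 d p.i. to control was 3.94 (3.25 to 4.78). Its co-receptor Cd14 was at 62.4 and 63.4 CPM in control and at 1 d p.i. and at 1705 at 7 d p.i. (500, 387 and 5215 UMIs). Hence the level of Cd14 differed from control only in the later library, with ratios of 1.02 (0.887 to 1.16) and 27.3 (24.9 to 30.0), and the later one ranked 23 among 10227 genes with at least 50 UMIs in both libraries together. Ly96, the partner of TLR4 that binds the lipid part of LPS, was at 35.4, 63.2 and 72.6 CPM (284, 386 and 222 UMIs). It was the only one of the 7 genes with a higher level at 1 d p.i. whose interval excluded 1, with a ratio of 1.78 (1.53 to 2.09), and it stood at 2.05 (1.71 to 2.45) at 7 d p.i.

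The endosomal receptors went different ways. Tlr13, the receptor for bacterial ribosomal RNA, was at 40.2, 17.7 and 136.3 CPM (322, 108 and 417 UMIs), with the lowest ratio of the 7 genes at 1 d p.i., 0.440 (0.351 to 0.549), and 3.39 (2.93 to 3.94) at 7 d p.i. Tlr7, the receptor for single-stranded RNA, was at 32.9, 22.8 and 28.8 CPM (264, 139 and 88 UMIs), with ratios of 0.691 (0.558 to 0.852) and 0.873 (0.678 to 1.12). Myd88, the shared adaptor, was at 62.9, 37.3 and 116.1 CPM (504, 228 and 355 UMIs), with ratios of 0.594 (0.505 to 0.695) and 1.85 (1.61 to 2.12). Thus, the receptors and the adaptor had their lowest levels in the library at 1 d p.i., and Tlr7 alone was not above control at 7 d p.i.

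**Figure D1:**
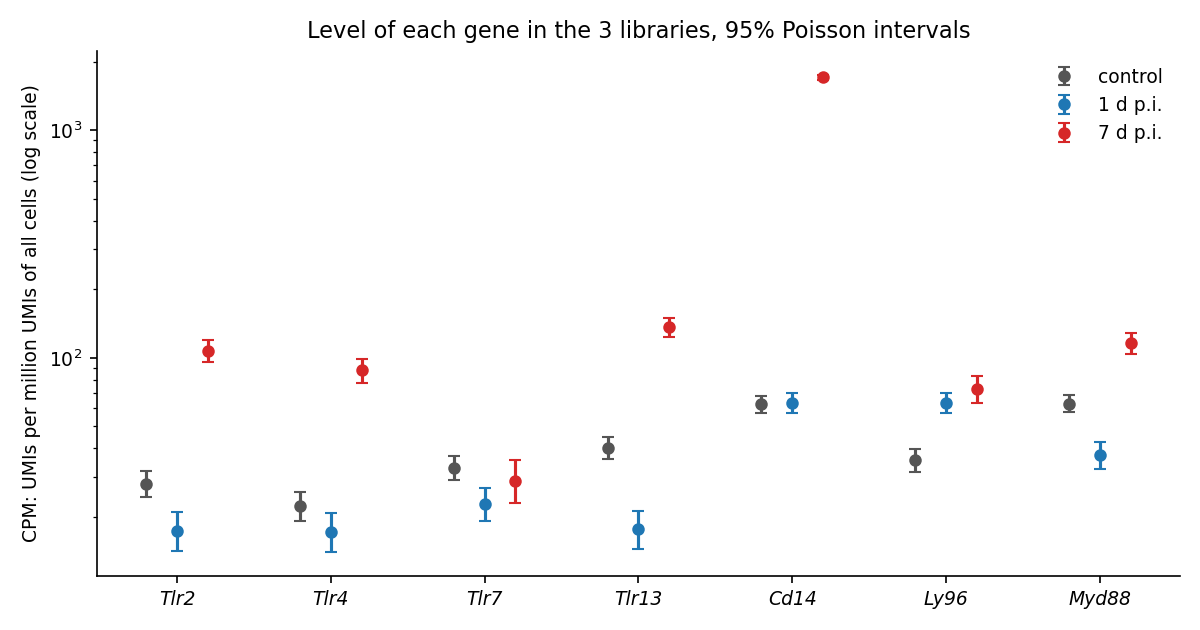
Level of each gene in control, at 1 d p.i. and at 7 d p.i., in CPM of all cells on a log axis, with 95% Poisson intervals for counting error as bars and 1 pooled library per point. Cd14 reached 1705 CPM at 7 d p.i. against 62.4 in control, while Tlr7 stayed between 22.8 and 32.9.

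Counts of genes past a 2-fold difference set these ratios beside those of all genes. Because the 7 genes were chosen with earlier results of these data known, the counts are descriptions only. At 1 d p.i. none of the 7 genes was at least 2-fold higher than in control, against 12.2% of 11357 genes, and 1 (Tlr13) was at least 2-fold lower, against 5.86%. In the later library 5 of the 7 genes (Tlr2, Tlr4, Tlr13, Cd14 and Ly96) were at least 2-fold higher, against 8.79% of 10227 genes, and none was at least 2-fold lower, against 21.8%. From 1 d p.i. to 7 d p.i. 5 of the 7 (Tlr2, Tlr4, Tlr13, Cd14 and Myd88) were at least 2-fold higher, against 11.6% of 10271 genes, and none at least 2-fold lower, against 27.8%. The median ratio of 7 d p.i. to control was 3.39 over the 7 genes and 0.862 over all genes tested.

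The share of mitochondrial UMIs moved with the later library. Without these UMIs every ratio of 7 d p.i. to control was lower by 0.27 on the log2 scale. Cd14 was then 22.7-fold, Tlr2 3.17-fold and Tlr13 2.81-fold above control, and Ly96, at 1.70-fold, no longer passed 2-fold. A list of 12 genes that are known to be induced while tissue is digested, among them Fos, Jun, Atf3 and Hspa1a, took 0.135% of the UMIs in control, 0.0965% at 1 d p.i. and 0.432% at 7 d p.i., and its part in these differences was not tested.

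To place the genes in cell classes, cells were gated by markers, a cell entering a class when it carried at least 2 of the 8 markers of that class and more of them than of any other class. The gates are ranges of marker counts and not cell types, and no cells were removed as doublets. Kupffer-gated cells (Clec4f, Cd5l, Vsig4 and others) numbered 1596 in control, 2839 at 1 d p.i. and 167 at 7 d p.i., monocyte-gated cells (Ly6c2, Ccr2 and others) 1569, 98 and 1164, and neutrophil-gated cells (Ly6g, Retnlg, Csf3r and others) 200, 28 and 1253. A gate for macrophages with Arg1, Ccl2, Ccl7, Inhba and other wound genes, here called wound macrophage, held 52, 46 and 1375 cells, and the endothelial gate 1399, 3097 and 56. Between 25.5% and 29.1% of the cells of a library entered no class. Many gated cells also met another gate, at 7 d p.i. 539 of the neutrophil-gated, 734 of the wound macrophage-gated and 568 of the monocyte-gated cells. Of the Kupffer-gated cells 530 did so in control, 972 at 1 d p.i. and 99 of 167 at 7 d p.i. Cells with the minimum of 2 markers numbered 244, 269 and 249 in the first 3 of these gates at 7 d p.i. In the small gates behind the earlier values they were 36 of 52 (control) and 36 of 46 (1 d p.i.) wound macrophage-gated cells, and 57 of 200 and 17 of 28 neutrophil-gated cells. The 10 leading genes of these gates held 4 to 6 of their own markers, with the platelet genes Gp9 and Gp1bb in the endothelial gate and the granulocyte precursor gene Mpo in the monocyte gate besides.

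Cd14 at 7 d p.i. was highest in neutrophil-gated cells and stood above its control level in the neutrophil, monocyte and all 3 macrophage gates, and also in the endothelial gate, where the ratio was 33.8 (13 to 88.9) from 11 and 10 UMIs. In neutrophil-gated cells it was at 142.7 CPM in control (19 UMIs), at 907.6 at 1 d p.i. (14 UMIs in 5 of 28 cells) and at 3079 at 7 d p.i. (1899 UMIs). The ratio to control was 6.36 (2.95 to 13.4) at 1 d p.i. and 21.6 (13.8 to 35.9) at 7 d p.i. In wound macrophage-gated cells it went from 114.6 (5 UMIs) to 648.1 (19 UMIs) and 1799 CPM (1378 UMIs), or 5.65-fold (2.04 to 19.4) and 15.7-fold (6.71 to 48.4) above control. Only 52 and 46 cells of that gate came from the first 2 libraries, and the intervals were wide.

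Monocyte-gated cells held Cd14 at 77.9, 51.6 (3 UMIs) and 1050 CPM, and no difference from control was detectable at 1 d p.i. (ratio 0.663, 0.134 to 2.01). The monocyte ratio was 13.5 (10.7 to 17.2) at 7 d p.i., and 10.1 after cells that met several gates were left out. Kupffer-gated cells held Cd14 at 83.4, 111.2 and 476.3 CPM (130, 236 and 61 UMIs), with ratios of 1.33 (1.07 to 1.67) and 5.71 (4.14 to 7.80). The value at 7 d p.i. rested on 167 cells, of which 99 also met another gate. The order at 7 d p.i. was neutrophil, wound macrophage, monocyte and Kupffer gate, each higher than the next by 1.71-fold (1.60 to 1.84), 1.71-fold (1.57 to 1.88) and 2.20-fold (1.70 to 2.91), while the lipid macrophage (450.7) and endothelial gates (368.5) did not differ from their neighbours beyond the intervals.

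Free RNA from broken cells gives UMIs in cells that do not express a gene, and T cells served as the reference. At 7 d p.i. 29 of the 60 T-gated cells had the minimum of 2 markers and 20 also met another gate, which limits this reference. T-gated cells held Cd14 at 11.1 CPM in control (3 UMIs) and 145.5 at 7 d p.i. (4 UMIs in 60 cells, interval 39.6 to 372). Its level was thus higher at 7 d p.i. as well, with intervals that did not overlap, and the part of free RNA in the higher Cd14 levels of the Kupffer, lipid macrophage and endothelial gates was not tested. Neutrophil-gated cells at 7 d p.i. were 21.2-fold (8.25 to 77.7) above that level, whereas the level in endothelial-gated cells was within its interval. Within the same gates the digestion-induced genes went from 0.222% of all UMIs (control, neutrophil gate) to 0.660% (7 d p.i.), and mitochondrial transcripts 28.8% and 5.52%. Without mitochondrial UMIs the Cd14 ratio in neutrophil-gated cells was 16.3, and 16.1 after cells that met several gates were left out. The part of digestion in the result was not tested.

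Cell by cell, more cells held Cd14 and more UMIs of it per cell in the later library. With cells thinned to 300 UMIs, 50.8% of 1178 neutrophil-gated cells had a Cd14 UMI (47.9% to 53.7%), against 3.03% of 198 in control (1.12% to 6.48%). Unthinned, the shares were 60.2% and 7.50% at median depths of 437 and 589 UMIs. The thinned share was 34.4% in wound macrophage-gated cells (control 6%), 21.7% in monocyte-gated cells (control 2.34%) and 15.4% in Kupffer-gated cells (control 2.17%). T-gated cells at 7 d p.i. had 0 of 46 after thinning, for which 3 counts allow a share of up to 6.52%, and 6.67% unthinned at a median depth of 424 UMIs. At least 3 Cd14 UMIs were found in 10.9% of the thinned neutrophil-gated cells and in 1 of the 198 control cells.

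**Figure D2:**
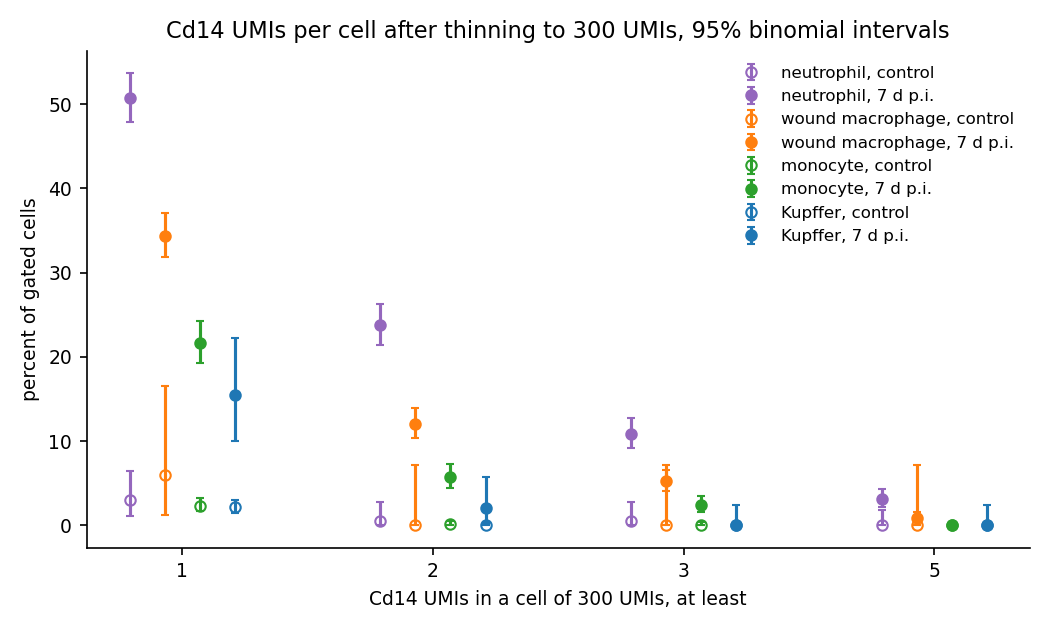
Percent of gated cells with at least 1, 2, 3 or 5 Cd14 UMIs after thinning each cell to 300 UMIs, in control (open points) and at 7 d p.i. (filled points), with 95% binomial intervals. The neutrophil gate at 7 d p.i. is highest at each step, from 50.8% at 1 UMI to 3.14% at 5 UMIs.

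Tlr2 had about the same level in neutrophil-gated cells of control and 7 d p.i., at 127.7 (17 UMIs) and 118.3 CPM (73 UMIs), with 0 UMIs at 1 d p.i. in a sum of 15426. The ratio of 7 d p.i. to control was 0.927 (0.541 to 1.68) there, in contrast to monocyte-gated cells, where Tlr2 went from 48.1 to 115.7 CPM, a ratio of 2.41 (1.67 to 3.50). In Kupffer-gated cells it was at 34.0, 22.6 and 54.7 CPM (53, 48 and 7 UMIs), with an interval at 7 d p.i. that included no change. The neutrophil, monocyte and wound macrophage gates (99.2) did not differ in Tlr2 beyond their intervals at 7 d p.i. T-gated cells at 7 d p.i. held 0 Tlr2 UMIs of 27495, for which 3 counts allow 109.1 CPM. That sum was too small to place the neutrophil and monocyte gates above this reference (lower limits of the ratios 0.860 and 0.843). Therefore, Tlr2 in the whole library was higher while the gate with the highest level in control showed no detectable difference.

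Tlr4 was led by neutrophil-gated cells at 7 d p.i., with 123.2 CPM (76 UMIs), followed by wound macrophage-gated (92.7) and monocyte-gated cells (74.3). Neighbours in this order did not differ beyond their intervals, but the neutrophil gate was above the monocyte gate by 1.66-fold (1.15 to 2.41) and above the Kupffer gate, with 31.2 CPM from 4 UMIs, by 3.94-fold (1.48 to 14.8). In control the same 3 gates held 45.1 (6 UMIs), 0 (0 UMIs of 43620) and 22.1 CPM. The ratio of 7 d p.i. to control was 2.73 (1.20 to 7.68) in neutrophil-gated and 3.36 (2.02 to 5.75) in monocyte-gated cells. Mitochondrial transcripts took 28.8% (control) and 5.52% (7 d p.i.) of the UMIs of the neutrophil gate. In the monocyte gate they took 23.0% and 3.28%. Without these UMIs both ratios would be lower, and the interval of the neutrophil ratio would include no change. With a minimum of 300 genes per cell the neutrophil ratio was 1.08 (0.398 to 3.64), from 22 and 5 UMIs. Kupffer-gated cells, at 35.9, 26.4 and 31.2 CPM, showed no difference from control beyond the intervals at either time. As for Tlr2, T-gated cells at 7 d p.i. held 0 Tlr4 UMIs of 27495. That sum was too small to place the neutrophil and monocyte gates above this reference (lower limits of the ratios 0.896 and 0.534).

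Ly96 had another distribution, with the Kupffer and endothelial gates at the top at 1 d p.i. Kupffer-gated cells held it at 67.4, 70.7 and 85.9 CPM, with a ratio of 1.05 (0.812 to 1.36) at 1 d p.i. Endothelial-gated cells went from 45.7 (42 UMIs) to 75.0 CPM (148 UMIs) at 1 d p.i., a ratio of 1.64 (1.16 to 2.37). Of these cells 198 of 1399 in control and 823 of 3097 at 1 d p.i. also met another gate. T-gated cells at 1 d p.i. held Ly96 at 48.8 CPM (4 UMIs). The endothelial gate (1.54-fold, 0.588 to 5.71) and the Kupffer gate (1.45-fold, 0.554 to 5.38) were not above that level beyond the intervals. The part of free RNA was not tested. The Kupffer and endothelial gates held 37.0% and 14.8% of the Ly96 UMIs of control cells, and 38.9% and 38.3% at 1 d p.i. In monocyte-gated cells Ly96 was at 28.8 in control and 77.2 at 7 d p.i., a ratio of 2.67 (1.68 to 4.33). Hence the gates in which Ly96 was higher beyond its interval were the endothelial gate in the earlier library and the monocyte gate in the later one. The difference was not confined to these gates. In cells that entered no class Ly96 was 2.26-fold (1.53 to 3.39) above control at 1 d p.i. and 3.31-fold (2.17 to 5.06) at 7 d p.i.

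Tlr13 in Kupffer-gated cells was at 53.2 CPM in control, 24.0 at 1 d p.i. and 132.7 at 7 d p.i. (83, 51 and 17 UMIs). The lower level at 1 d p.i. and the higher level at 7 d p.i. of the whole library were both found within this gate. The ratios were 0.451 (0.312 to 0.647) and 2.49 (1.39 to 4.24), but at 7 d p.i. 99 of the 167 cells also met another gate. Monocyte-gated cells held 66.3, 0 (0 UMIs of 58105) and 108.6 CPM, with a ratio of 1.64 (1.17 to 2.30) at 7 d p.i. Without mitochondrial UMIs the interval of this monocyte ratio would include no change. Neutrophil-gated cells went from 67.6 (9 UMIs) to 180.0 (111 UMIs), a ratio of 2.66 (1.35 to 5.98). However, T-gated cells at 7 d p.i. held 6 UMIs, or 218.2 CPM (80.1 to 475), after 0 UMIs of 271239 in control. The share of cells with a Tlr13 UMI was 8.33% of 60 T-gated cells and 8.22% of neutrophil-gated cells before thinning, and 2.17% (0.0550% to 11.5%) and 4.92% (3.76% to 6.32%) after it. The shares of Tlr13 at 7 d p.i. thus did not stand above this reference.

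Tlr7 had its largest part in Kupffer-gated cells in control (29.2% of its UMIs) and at 1 d p.i. (56.1%), with levels of 49.4, 36.8 and 46.8 CPM (77, 78 and 6 UMIs), and in control it was at 41.3 in monocyte-gated and 42.4 in lipid macrophage-gated cells, the latter marked by Gpnmb and Trem2. These 3 gates did not differ beyond their intervals. Tlr7 at 7 d p.i. stood at 35.7 in monocyte-gated, 27.4 in wound macrophage-gated and 17.8 CPM in neutrophil-gated cells, and none of these differed from its control beyond the interval. Endothelial-gated cells at 1 d p.i. held 13.7 CPM against 6.53 in control (27 and 6 UMIs, ratio 2.10, 0.847 to 6.21). The highest value in control was that of the gate for plasmacytoid dendritic cells, 72.8 CPM from 3 UMIs, in which the basophil genes Prss34 and Mcpt8 were also among the leading genes.

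Among gates of at least 20000 UMIs, Myd88 was highest in monocyte-gated cells in each library, at 140.4, 137.7 and 160.0 CPM (146, 8 and 112 UMIs). This lead over the next gate was within the interval each time. In control it was 1.49-fold (0.941 to 2.48) over the gate for conventional dendritic cells of type 1. It was 2.02-fold (0.403 to 19.5) over wound macrophage-gated cells at 1 d p.i. and 1.10-fold (0.418 to 4.11) over T-gated cells at 7 d p.i. In monocyte-gated cells the ratio of 7 d p.i. to control was 1.14 (0.883 to 1.47). In the later library the neutrophil (100.5) and wound macrophage gates (97.9) were 0.628-fold (0.453 to 0.864) and 0.612-fold (0.450 to 0.827) of the monocyte level. In Kupffer-gated cells Myd88 was at 65.4, 43.8 and 78.1 CPM, with a ratio of 0.670 (0.500 to 0.896) at 1 d p.i. The T gate held 145.5 CPM at 7 d p.i. from 4 UMIs. Myd88 was therefore higher in the later library without a difference beyond counting error in the monocyte gate.

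**Figure D3:**
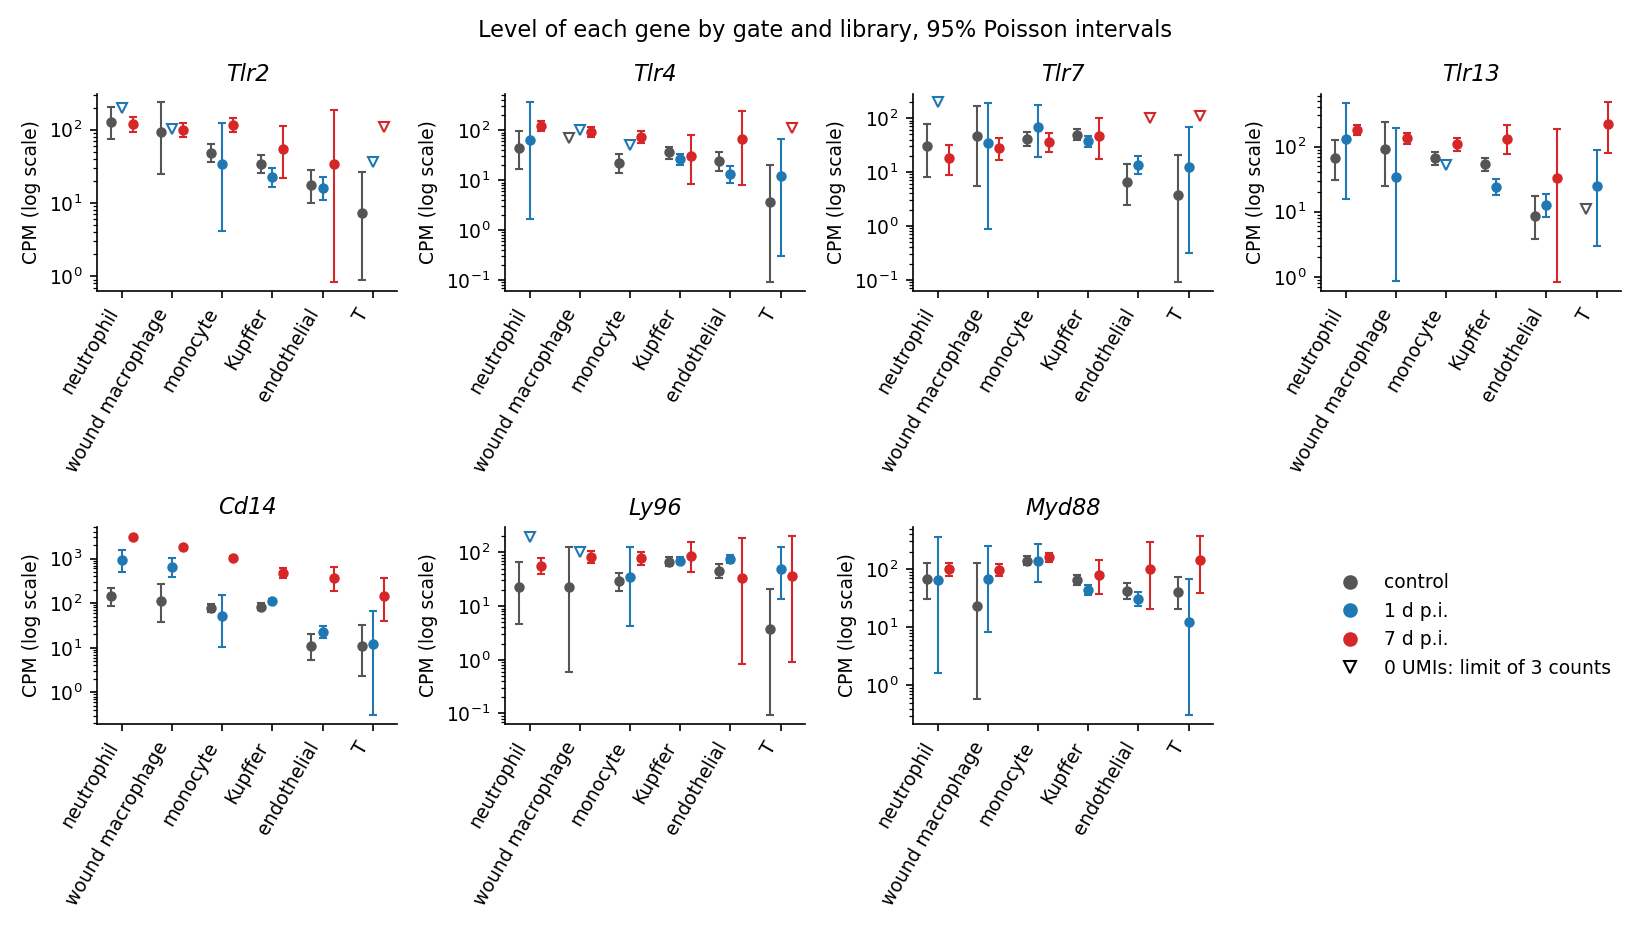
Level of each gene by gate in control, at 1 d p.i. and at 7 d p.i., in CPM of the gate on log axes that differ between panels, with 95% Poisson intervals and open triangles at the limit of 3 counts where a gate had 0 UMIs. Cd14 at 7 d p.i. runs from 3079 in the neutrophil gate to 145.5 in the T gate, and Myd88 is highest in the monocyte gate in control.

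The 2-fold limit was also applied within gates, there to genes with at least 10 UMIs in both sums together. Low counts can pass it by counting error more easily than in the sums over all cells. In neutrophil-gated cells 4 of the 7 genes (Tlr4, Tlr13, Cd14 and Ly96) were at least 2-fold higher at 7 d p.i. than in control, against 27.8% of 5923 genes, and none was at least 2-fold lower, against 9.03%. Of these 4, Ly96 rested on 35 and 3 UMIs with an interval that included no change (2.52, 0.794 to 12.8), and Tlr4 was under 2-fold with the minimum of 300 genes given above. In monocyte-gated cells 4 (Tlr2, Tlr4, Cd14 and Ly96) were at least 2-fold higher, against 13% of 8680 genes, and none at least 2-fold lower, against 13%. Without mitochondrial UMIs Ly96 in the neutrophil gate and Tlr2 in the monocyte gate would no longer pass 2-fold. The shares of all genes would move as well. In Kupffer-gated cells 2 (Tlr13 and Cd14) were at least 2-fold higher at 7 d p.i., against 12.3% of 9134 genes, and none at least 2-fold lower, against 22.3%. At 1 d p.i. none was at least 2-fold higher in Kupffer-gated cells, against 17.5% of 11399 genes, and 1 (Tlr13) was at least 2-fold lower, against 6.04%. In endothelial-gated cells at 1 d p.i. 2 (Tlr7, with the interval given above, and Cd14, with 2.10, 1.04 to 4.66) were at least 2-fold higher, against 15.2% of 11285 genes, and none at least 2-fold lower, against 5.02%.

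The gated composition differed widely between the libraries, and the ratios were therefore also computed with each gate, the ungated cells included, weighted by its share of UMIs in control. At 7 d p.i. Cd14 was then 13.1-fold above control (11.7 to 14.6), lower than the 27.3-fold difference of the whole library. Tlr2 was at 2.77 (2.09 to 3.67), Tlr13 at 2.71 (2.11 to 3.48), Tlr4 at 2.43 (1.72 to 3.43), Ly96 at 1.87 (1.33 to 2.62), Myd88 at 1.68 (1.31 to 2.16) and Tlr7 at 0.827 (0.516 to 1.33). For 7 d p.i. this covered 13 classes with 92.9% of the control UMIs. At 1 d p.i. Tlr13 stood at 0.368 (0.272 to 0.497) and Tlr4 at 0.563 (0.407 to 0.779), whereas the intervals of the other 5 genes, Ly96 with 1.20 (0.968 to 1.48) among them, included 1. A gate with 0 UMIs added no width to these intervals. Tlr13 and Tlr4 at 1 d p.i. had 0 UMIs in the monocyte (of 58105) and lipid macrophage gates (of 12053). Their intervals are therefore too narrow and do not set them apart from the other 5 genes. The ratios at 1 d p.i. depended on the gates and the weights. With 3 markers per gate Tlr2 (0.581, 0.368 to 0.915), Tlr7 (0.669, 0.460 to 0.975), Cd14 (1.27, 1.001 to 1.60) and Ly96 (1.53, 1.24 to 1.88) excluded 1 as well. With the UMI shares of 7 d p.i. as weights the intervals of Tlr13 (0.622, 0.213 to 1.82) and Tlr4 (0.849, 0.184 to 3.92) included 1, and those of Tlr2 (0.193, 0.0759 to 0.489) and Cd14 (3.90, 2.51 to 6.07) did not. For Tlr2 the neutrophil and wound macrophage gates at 1 d p.i. held 0 UMIs of 15426 and 29318. Its interval is therefore too narrow to exclude 1 firmly. At 7 d p.i. the 6 genes other than Tlr7 had intervals above 1 under all 3 settings. The same limit holds there, as for Tlr4 with 0 UMIs of 43620 in the wound macrophage gate of control.

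**Figure D4:**
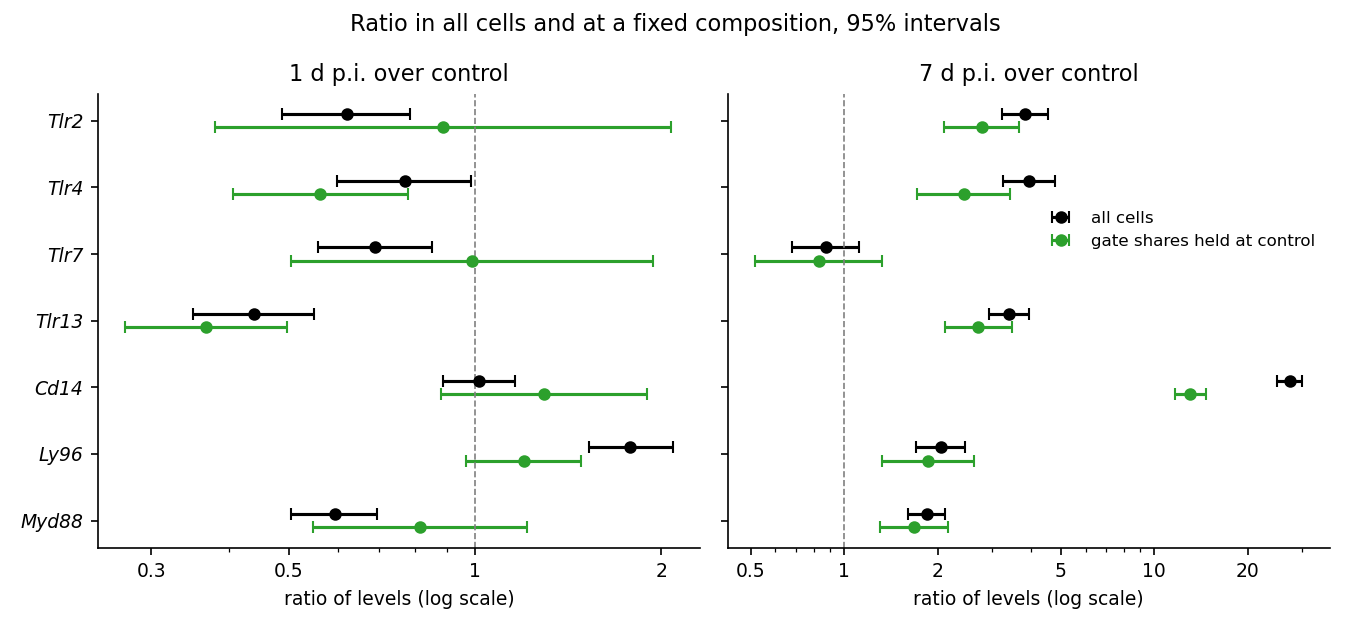
Ratio of 1 d p.i. (left) and 7 d p.i. (right) to control for each gene on log axes, in all cells (black) and with gate shares held at control (green), with 95% intervals for counting error. Cd14 at 7 d p.i. goes from 27.3 to 13.1 and stays the highest ratio, and Tlr7 lies across 1 in both.

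A list of 72 other genes of the pathway, also chosen with earlier results of these data known, was set beside the 7 genes. At 7 d p.i. 24 of the 67 listed genes with enough UMIs were at least 2-fold higher than in control and 7 at least 2-fold lower, against 8.79% and 21.8% of all genes. Among the other Toll-like receptors, Tlr6 and Tlr1, which pair with TLR2, were 5.50-fold (3.16 to 9.89) and 3.35-fold higher (2.43 to 4.62), whereas Tlr3 and Tlr12 were at 0.277 and 0.126 of control. Of the co-receptors and trafficking factors none of 8 was 2-fold higher, and Lbp, which delivers LPS to CD14 and is made by hepatocytes, was at 0.246 of control at 7 d p.i. and at 2.07 at 1 d p.i., when the hepatocyte markers took 2.73% of the UMIs. The hepatocyte gate held 3 of the Lbp UMIs at 1 d p.i., against 73 in the endothelial and 53 in the Kupffer gate, and the part of hepatocyte RNA was not tested. Unc93b1, which carries the endosomal receptors, was at 0.919 of control.

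The ligand list was split, with S100a8 and S100a9, neutrophil proteins that TLR4 can bind, 10.9-fold and 9.89-fold higher at 7 d p.i., and the matrix genes Bgn and Tnc at 0.0385 and 0.126 of control. Of the adaptors and kinases 3 of 21 were at least 2-fold higher, not far from the 8.79% of all genes, with Irak2 at 3.17-fold (2.49 to 4.04) and Irf5 at 2.16-fold (1.89 to 2.46), and none at least 2-fold lower. The median ratio of that list was 1.19. Inhibitors of the pathway were at least 2-fold higher for 7 of 12, against the same 8.79%, led by Nfkbiz at 4.15-fold (3.65 to 4.71) and Socs3 at 4.03-fold (3.40 to 4.80), with Sigirr at 0.360. Among the target genes 10 of 16 were at least 2-fold higher, against 8.79% of all genes, led by Nos2 (83 against 2 UMIs, 109-fold, 29.2 to 913) and the neutrophil chemokine Cxcl2 at 90.0-fold (82.1 to 98.9), and Il12b was at 0.194. Ifnb1, the interferon that TLR4 can induce through another adaptor, had 2 UMIs in all libraries together. At 1 d p.i. 1 of 65 listed genes was at least 2-fold higher and 9 were at least 2-fold lower, against 12.2% and 5.86% of all genes. From 1 d p.i. to 7 d p.i. the numbers were 23 and 6 of 62, against 11.6% and 27.8%.

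**Figure D5:**
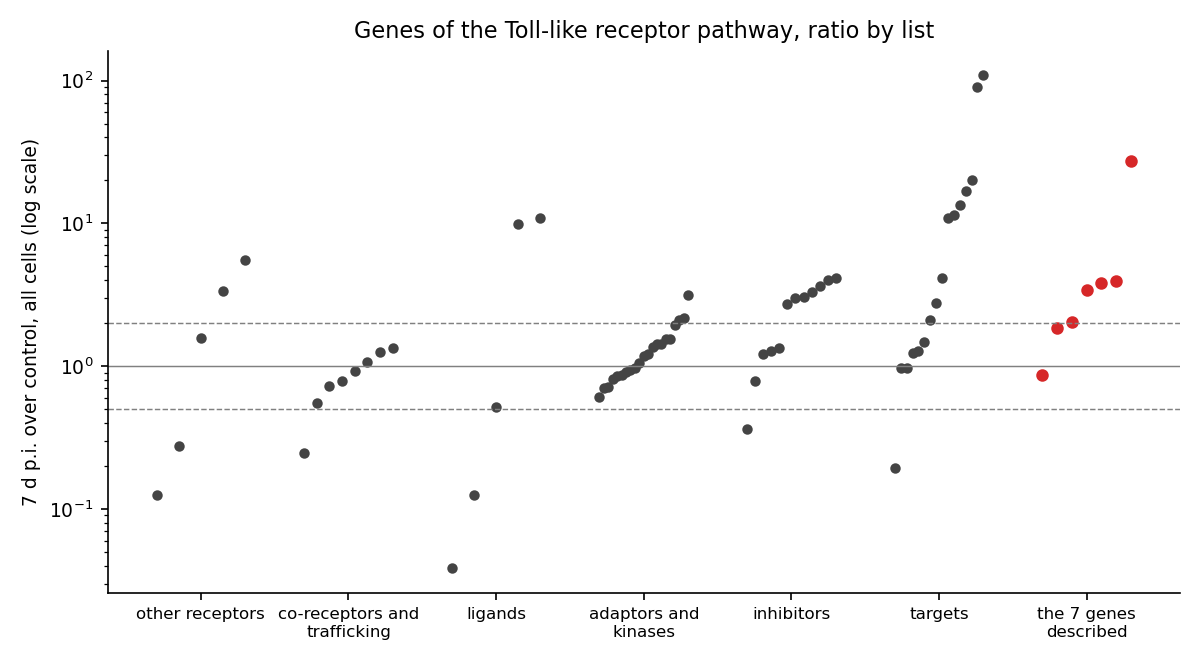
Ratio of 7 d p.i. to control in all cells on a log axis for the listed pathway genes with at least 50 UMIs in both libraries together (black, by list) and for the 7 genes described (red). Lines mark 0.5, 1 and 2, and 10 of 16 targets and 7 of 12 inhibitors lie above 2, against 3 of 21 adaptors and kinases.

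Genes with the pattern most like each of the 7 were found by Pearson's r of log2 levels over 33 sums of a gate in a library, among 8025 genes. These sums share libraries and depth, and r is a description. Cd14 was most like Fth1, the ferritin heavy chain (r = 0.88), followed by Grina and Plin2. Tlr13 had Il1b (r = 0.77) among its closest 3 genes, after 4632428N05Rik and Glrx, and Tlr2 had Prdx5, Ifitm6 and Tpd52. Myd88 was closest to the interferon-stimulated gene Isg15 (r = 0.87), followed by Plac8, itself a marker of the monocyte gate, and Atf6. Tlr7 was closest to Lair1, Cybb and Ly86, Ly96 to Rufy3, Msr1 and Lgmn, and Tlr4 to Rabgef1, Plk3 and E430025E21Rik. Among the 7 genes themselves the highest r was that of Tlr13 with Cd14 (0.69) and the lowest that of Tlr4 with Tlr7 (0.064).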

How the data were processed

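Reads were paired-end Drop-seq reads, aligned with STAR (version 2.5.2a in the submitters' processing notes). The notes name hg19, a human build, although the rows are mouse symbols, and the annotation is not given in the sources used here. The authors deposited raw UMI counts per gene and barcode, not normalized. The file headers name a minimum of 200 genes, yet barcodes with as few as 11 genes are present. Depth was 4580021 to 10032574 UMIs per library, of which 3058967 to 8013800 lay in barcodes with at least 200 genes.

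The 7 genes and all lists were chosen with earlier results of these data known. UMIs were summed by library and by gate (Python 3.11.15, SciPy 1.17.1). Levels have exact Poisson intervals, shares exact binomial (Clopper-Pearson) intervals, ratios conditional binomial intervals (within gates given from 10 UMIs in both sums added together) and fixed-composition ratios delta-method intervals. In the last of these a gate with 0 UMIs adds no width. A count of 0 allows up to 3 counts. Cells thinned to 300 UMIs left out shallower cells, for example 75 neutrophil-gated cells at 7 d p.i. Orders of gates and profiles used sums of at least 20000 UMIs, log2 of the level plus a pseudocount of 10, and genes with at least 200 UMIs. The 2-fold counts over all cells used genes with at least 50 UMIs in both sums together, and those within gates at least 10. They were given as descriptions without a test. The script that makes these counts was checked on simulated counts with known fold changes. The genes named are the 7, the 2 highest and lowest ratios of each pathway list, and the 3 most similar genes, while Unc93b1 and Ifnb1 were chosen after their values were seen. Symbols were matched to RefSeq promoters for 3 of the 7. Alternatives changed the barcode filter, totals, scaling, gates, weights and thinning depth.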

Additional observations from a re-analysis of the deposited data

Results flagged for a closer look

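Barcodes under 200 genes were left out of the cells compared and used only where every barcode was kept as an alternative. In these barcodes at 7 d p.i. Cd14 was at 3066 CPM, against 36.2 in the same barcodes of control and 1705 in cells at 7 d p.i. Tlr2 was at 150.6 (control 21.3), Tlr4 at 124.9 (15.4), Tlr13 at 159.8 (30.2), Myd88 at 100.6 (43.6) and Ly96 at 48.7 (13.9), while Tlr7, at 15.1 against 15.9, was not higher. At 1 d p.i. Ly96 was at 41.9 CPM in these barcodes. The 8 neutrophil markers together took 17376 CPM of these barcodes at 7 d p.i., against 7413 in cells and 1520 in the low barcodes of control. Whether the UMIs came from small cells or from free RNA was not tested.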

How the results depend on the processing

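Of 497 alternatives over 164 values, 428 stayed within their range of counting error, 69 moved beyond it, and no ratio whose interval excluded 1 turned to the other side of 1. Ratios whose interval included 1 did cross it in places, among them Cd14 at 1 d p.i. with every barcode (0.949), Tlr2 in neutrophil-gated cells with 3 markers per gate (1.09) and, at 1 d p.i. with the weights of 7 d p.i., Myd88 at a fixed composition (1.04). Among ratios of 7 d p.i. to control in all cells, keeping every barcode gave 4.56 for Tlr2, 4.79 for Tlr4 and 37.8 for Cd14, and at least 300 genes per barcode gave 3.24 for Tlr4 and 21.4 for Cd14. Leaving out cells with over 20% mitochondrial UMIs gave 23.6 for Cd14 and 1.69 for Ly96, and 0.334 for Tlr13 at 1 d p.i. Leaving mitochondrial UMIs out of the total gave 3.17 for Tlr2, 2.81 for Tlr13, 22.7 for Cd14, 1.70 for Ly96 and 1.53 for Myd88, and leaving out hepatocyte markers as well gave 3.17, 2.81, 22.6, 1.70 and 1.53. Cd14 in monocyte-gated cells was at 10.1 without cells that met several gates. At a fixed composition, Cd14 at 7 d p.i. was at 14.7 with 3 markers per gate and 17.8 with the weights of 7 d p.i., and these weights gave 3.90 at 1 d p.i., with few cells in the neutrophil and wound macrophage gates. The same weights gave 0.193 for Tlr2, 0.849 for Tlr4, 0.622 for Tlr13 and 0.935 for Ly96 at 1 d p.i., the last 3 with intervals that included 1, and 1.57 for Tlr2, 4.32 for Tlr4 and 2.80 for Ly96 at 7 d p.i., while 3 markers per gate gave 0.581 for Tlr2, 0.669 for Tlr7, 1.27 for Cd14 and 1.53 for Ly96 at 1 d p.i., each with an interval that excluded 1. A gate with 0 UMIs added no width to the fixed-composition intervals. In neutrophil-gated cells Tlr4 was at 1.08 with at least 300 genes. Beyond the totals and filters, the cause of these shifts was not tested. No paired analysis was possible because each condition had 1 library. Low counts in single gates, under 20 UMIs for many values at 1 d p.i., and pooling of mice limit what can be read.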

Other observations

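The other Toll-like receptors were spread over other gates. Tlr3, a receptor for double-stranded RNA, was at 143.4 CPM in the control cells gated as conventional dendritic cells of type 1 (cDC1; 32 UMIs, interval 98.1 to 202), against 18.6 in Kupffer-gated cells, and at 138.3 in the same gate at 1 d p.i. (11 UMIs). Tlr11, a receptor for profilin, was at 89.6 CPM there in control (20 UMIs) against 3.85 in Kupffer-gated cells. Tlr12, its partner, was at 67.2 in the cDC1 gate and 56.5 in the Kupffer gate of control, and in the Kupffer gate it was at 24.0 at 1 d p.i. (88 and 51 UMIs, intervals 45.3 to 69.6 and 17.9 to 31.6). At 7 d p.i. only 12 cells entered the cDC1 gate, with 0 UMIs of all 3 genes among 8379. Tlr6 was at 19.6 and 19.5 CPM in the wound macrophage and neutrophil gates at 7 d p.i., from 15 and 12 UMIs.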
